A study of Mus musculus with 7 samples.

Results

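The 9 genes described here encode nuclear receptors of bone marrow stroma and the coregulators that these receptors recruit. They are the p160 coactivator genes Ncoa1, Ncoa2 and Ncoa3, the receptor genes Nr3c1, Esr1, Vdr, Rxra and Thra, and the corepressor gene Ncor1. They were taken by gene ID from 53801 genes in the count tables, and all 9 passed the filter on low counts that left 12930 genes. Ncoa3 was chosen by its unadjusted p in the comparison between the groups, where it ranked 2 of 12930, so its difference is given as a description and not as a test. The others were chosen for their function, with results of the same comparison known.

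The groups were 3 mice injected with the vehicle DPBS and 4 mice injected with FAPi, an inhibitor of fibroblast activation protein, a serine protease of the stromal cell surface. All were male C57BL/6 mice, 8 weeks old at the start, that received daily intraperitoneal injections of 100 µl for 35 days, the inhibitor at 500 µg/kg. No genotype other than the strain is given, and the compound used as inhibitor is not named in the sources used here. From the limb bones of each mouse 7000 live cells were sorted that carried Pdgfra and lacked CD45, Ter119 and Tie2, and RNA was sequenced by a modified Smart-seq2 protocol. Each library is 1 replicate. In bulk RNA fewer cells of a type and less RNA per cell cannot be told apart.

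Nuclear receptors are transcription factors that bind lipid-soluble hormones. Nr3c1 encodes the glucocorticoid receptor, which mediates the bone loss of steroid treatment. Esr1 encodes estrogen receptor alpha, Vdr the vitamin D receptor and Thra thyroid hormone receptor alpha. Vdr and Thra proteins bind DNA mostly as heterodimers with a retinoid X receptor such as the product of Rxra. A receptor with bound hormone recruits p160 coactivators, which bring in the histone acetyltransferases encoded by Crebbp and Ep300. Without hormone, receptors such as those for thyroid hormone bind the corepressor encoded by Ncor1, which carries the histone deacetylase encoded by Hdac3. In marrow stroma these receptors are known for their roles in osteoblast differentiation and in the control of the osteoclast factor RANKL.

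RefSeq promoter windows of 300 bases (250 before and 50 after a start, build GRCm38.p6) were found for 5 of the 9 genes, namely Esr1, Ncoa1, Ncor1, Rxra and Vdr. The window of the vitamin D receptor gene and 1 of the 2 windows of its partner are shown because Vdr is the receptor whose levels did not overlap between the groups. Capitals mark any of 3 motifs, each searched on both strands. These were the nuclear receptor half-site AGGTCA, the steroid receptor half-site AGAACA and the GC box GGGCGG. The Vdr window lies at chr15:97908247-97908546 on the minus strand, and the downstream of 2 Rxra windows at chr2:27709042-27709341 on the plus strand.
Vdr: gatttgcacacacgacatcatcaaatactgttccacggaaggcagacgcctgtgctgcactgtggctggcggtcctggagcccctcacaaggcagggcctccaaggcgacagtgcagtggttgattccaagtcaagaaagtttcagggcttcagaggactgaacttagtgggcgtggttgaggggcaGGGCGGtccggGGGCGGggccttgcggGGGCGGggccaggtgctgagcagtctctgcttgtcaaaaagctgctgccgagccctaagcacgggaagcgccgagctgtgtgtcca
Rxra: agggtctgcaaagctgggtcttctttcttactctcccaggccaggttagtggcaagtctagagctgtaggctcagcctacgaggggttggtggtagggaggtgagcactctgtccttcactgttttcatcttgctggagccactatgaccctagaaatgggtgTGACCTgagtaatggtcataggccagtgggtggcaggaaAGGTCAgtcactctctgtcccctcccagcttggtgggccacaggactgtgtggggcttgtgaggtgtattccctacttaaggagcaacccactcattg
The Vdr window held 3 GC boxes and neither half-site. A GC box was found in 35.7% of all 32851 windows of this length. The downstream Rxra window held the nuclear receptor half-site on each strand, a motif found in 16.3% of windows, and the upstream Rxra window held 4 GC boxes. The other windows, which belong to Esr1, Ncoa1 and Ncor1, held no AGGTCA. GC boxes stood at 7 places in the Ncoa1 window and at 2 places in 1 of the Ncor1 windows, and the Esr1 windows held no GC box. The steroid receptor half-site, found in 19.0% of windows, stood once in the Ncoa1 window and at 2 places in 1 of the 2 Ncor1 windows. A match is a description of letters and does not show that a factor binds there.

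Total gene counts ranged from 7492570 to 10569690 per library and were lower in the FAPi libraries (two-sided exact permutation p = 0.0571, where 3 against 4 libraries cannot give less than 0.0286). The stromal identity of the sort was checked by 10 markers, which summed to between 28650 and 31750 CPM in DPBS and between 28752 and 32467 CPM in FAPi libraries. Cxcl12 made up most of each sum, at 16652 to 20474 CPM in DPBS and 15945 to 21281 CPM in FAPi libraries. The sums therefore say little about the other markers, such as Col1a1 at 1014 to 4695 CPM in DPBS and 1206 to 5215 CPM in FAPi libraries. Of the 10 markers, 5 had a higher and 5 a lower estimate in FAPi mice. CPM is used here for the deposited counts rescaled to CPM with TMM factors. Erythroid markers (12 listed, 11 found and tested) summed to between 1907 and 16347 CPM in DPBS and between 1653 and 3382 CPM in FAPi libraries, and neutrophil markers to between 666 and 2846 CPM and between 198 and 639 CPM. DPBS replicate 2 was highest in both, but the neutrophil sums did not overlap between the groups. All 11 tested erythroid markers had a lower estimate in FAPi mice, with a median log2 difference of -1.38. Of 11 tested neutrophil markers, 10 had a lower and 1 a higher estimate, with a median of -1.59. Over all 12930 genes tested, 6393 had a lower estimate. Of the gated genes, Pdgfra had 317 to 365 CPM in DPBS and 383 to 440 CPM in FAPi libraries, without overlap. FAPi was higher without overlap at 3.39% of all genes, and the log2 difference of Pdgfra was 0.22 ± 0.21. Ptprc, which encodes CD45, had 0.269 to 5.28 CPM and Tek, which encodes Tie2, 0 to 1.60 CPM over all libraries. Of 8 markers of T and NK cells, 5 had no count in any library (Cd3e, Cd3d, Cd8a, Klrb1c and Trac). The B cell marker Ighm had 80.6 CPM in DPBS replicate 2 and 101 CPM in FAPi replicate 1, against 3.39 to 12.2 CPM in the other libraries. Lyz2, listed as a macrophage marker, had 135 to 353 CPM in DPBS and 93.1 to 141 CPM in FAPi libraries. Of 3 tested macrophage markers, 1 had a higher and 2 a lower estimate in FAPi mice. The endothelial markers summed to 366.9 CPM in FAPi replicate 1, of which Kdr made up 340 CPM, against 25.7 to 71.3 CPM in the other 6 libraries.

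Of the 9 genes, Ncoa3 and Vdr had higher levels in every FAPi library than in any DPBS library, and the other 7 overlapped between the groups. Groups without overlap were seen at 7.34% of the 12930 genes in either direction, and at 3.39% with FAPi higher. Without DPBS replicate 2 the same 2 genes did not overlap, where the share over all genes was 13.7%. None of the 9 passed the edgeR quasi-likelihood test at an adjusted p under 0.05, and the share of all genes that passed was 0%. An unadjusted p under 0.05 was found for 2 of the 9, Ncoa3 and Vdr, against 8.14% of all genes. DESeq2 called 1, Ncoa3, and 1.10% of the genes for which it gave an adjusted p. Ncoa3 was also the member called by edgeR without the low-count filter (0.0292% of genes) and by limma on the deposited CPM (0.0464% of genes with either pseudocount). As Ncoa3 was chosen for its rank, these counts describe the choice and nothing is read from them. Nor do the overlaps of the other 7 show that their levels were alike.

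**Figure D1:**
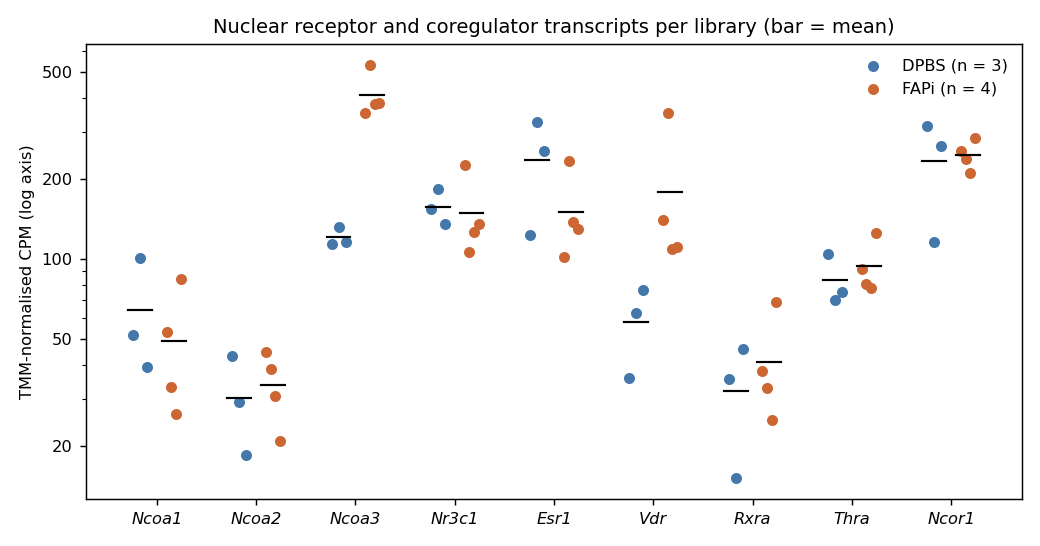
TMM-normalised CPM on a log axis for the 9 genes in 3 DPBS (blue) and 4 FAPi (orange) libraries, with a black bar at each group mean. The 4 FAPi libraries lie between 354 and 534 CPM at Ncoa3 and between 109 and 353 CPM at Vdr, above all DPBS libraries, and the groups overlap at the other 7 genes.

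Ncoa3 encodes the p160 coactivator also known as SRC-3 or AIB1, first described as amplified in breast cancer. It lies on chromosome 2 (165992636 to 166073242, mm10, plus strand). DPBS replicates 1 to 3 had 113, 132 and 116 CPM, and FAPi replicates 1 to 4 had 354, 534, 380 and 385 CPM. The DPBS libraries lay within a narrow range, and the lowest FAPi library was above the highest of them by more than the range of either group. The means were 121 ± 10.3 CPM (SD, n = 3) and 413 ± 82.0 CPM (SD, n = 4), a ratio of 3.43 and a log2 difference of 1.78 ± 0.25 (SE). These levels rest on 1229 to 1266 counts per DPBS library and 2757 to 4135 counts per FAPi library. In the deposited CPM, scaled by library totals alone, Ncoa3 ranged from 116 to 136 in DPBS and from 363 to 448 in FAPi libraries. Ncoa3 shares 154 exon bases with Sulf2, a heparan sulfatase gene on the other strand. Sulf2 had 0.660 to 10.8 CPM in DPBS and 0.699 to 7.91 CPM in FAPi libraries. The part of the shared bases in the Ncoa3 counts was not tested.

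The other p160 genes overlapped between the groups. Ncoa1 (chromosome 12, 4247362 to 4477182) encodes SRC-1, the founding member of the family. It had 52.0, 101 and 39.6 CPM in DPBS replicates 1 to 3 and 53.2, 33.2, 26.2 and 84.3 CPM in FAPi replicates 1 to 4. DPBS replicate 2 was highest and FAPi replicate 4 next, and the log2 difference of -0.38 ± 0.48 was smaller than its SE. Ncoa1 shares 68 exon bases with an antisense gene. Ncoa2 (chromosome 1, 13139105 to 13374083), which encodes the coactivator of glucocorticoid receptor known as GRIP1, had 43.3, 29.0 and 18.4 CPM in DPBS and 44.9, 38.6, 30.6 and 20.8 CPM in FAPi libraries. The values of the groups were interleaved, with a log2 difference of 0.16 ± 0.45.

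Set per kilobase of exon, so that genes can be compared, Ncoa3 made up 61.9, 55.1 and 71.7% of the summed p160 level in DPBS replicates 1 to 3. In FAPi replicates 1 to 4 its share was 83.1, 91.4, 90.6 and 81.4%. Ncoa3 was thus the most abundant p160 transcript in all 7 libraries, with a larger share in each FAPi library. Ncoa3 was chosen by its p in this comparison, and Ncoa1 and Ncoa2 overlapped between the groups. The larger Ncoa3 share and the larger summed level in FAPi libraries therefore restate that choice and are no further result. The summed p160 level was 24.7 ± 5.14 CPM per kb in DPBS (SD, n = 3) and 60.2 ± 9.69 CPM per kb in FAPi libraries (SD, n = 4). The ratio of this sum to the Ncor1 level overlapped between the groups, at 0.943, 3.36 and 0.986 in DPBS replicates 1 to 3 and 2.71 to 4.02 in FAPi libraries. DPBS replicate 2 lay within the FAPi range. Its Ncor1 level was the lowest of all libraries and its erythroid and neutrophil markers the highest, and the part of those cells in the ratio was not tested.

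**Figure D2:**
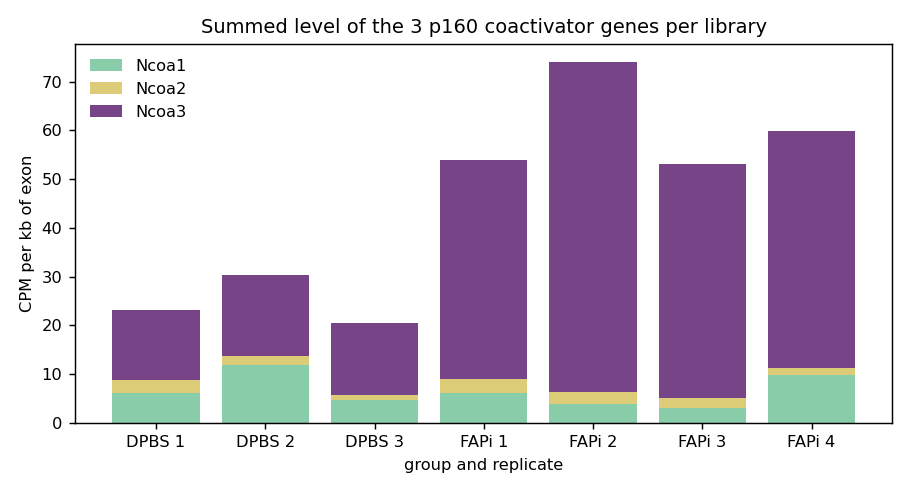
Stacked bars give the level of Ncoa1, Ncoa2 and Ncoa3 in CPM per kb of exon for each library, grouped as DPBS 1 to 3 and FAPi 1 to 4. Ncoa3, which was chosen by its p in this comparison, is the largest part of every bar. The sums of the FAPi libraries (53.1 to 74.0) exceed those of the DPBS libraries (20.5 to 30.4), which restates that choice.

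Vdr (chromosome 15, 97854425 to 97910630, minus strand) was the other gene without overlap. It had 35.8, 62.5 and 76.5 CPM in DPBS replicates 1 to 3 and 140, 353, 109 and 111 CPM in FAPi replicates 1 to 4. FAPi replicate 2 stood far above the other 3, which lay closer to the highest DPBS library. The means were 58.3 ± 20.7 CPM (SD, n = 3) and 178 ± 118 CPM (SD, n = 4), with a log2 difference of 1.61 ± 0.48. Without FAPi replicate 2 the difference was 1.03. In the deposited CPM the Vdr groups were separate as well, at 42.3 to 76.8 and 106 to 296.

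The partner of these receptors varied as much within as between the groups. Rxra (chromosome 2, 27676440 to 27762957) had 35.5, 15.1 and 45.9 CPM in DPBS and 38.0, 32.8, 24.9 and 69.0 CPM in FAPi libraries. DPBS replicate 2 was lowest and FAPi replicate 4 highest, and the log2 difference was 0.36 ± 0.50. Without either of these libraries it was near 0, at 0.01 and -0.00. The ratio of Vdr to Rxra per kb ranged from 0.976 to 4.00 in DPBS and from 1.55 to 10.4 in FAPi libraries, with overlap.

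Among the other receptor genes, Nr3c1 (chromosome 18, 39410545 to 39519421) had 153, 183 and 135 CPM in DPBS and 225, 106, 126 and 136 CPM in FAPi libraries. FAPi replicate 1 was highest and FAPi replicate 2 lowest of all, so the DPBS values lay inside the FAPi range, and the log2 difference was -0.08 ± 0.31. Esr1 (chromosome 10, 4611593 to 5005614) had 123, 326 and 254 CPM in DPBS and 102, 233, 137 and 130 CPM in FAPi libraries. The means were 234 ± 103 CPM (SD, n = 3) and 150 ± 57.0 CPM (SD, n = 4), but DPBS replicate 1 lay below 3 of the FAPi libraries. The log2 difference was -0.64 ± 0.38, and -0.33 without DPBS replicate 2. Thra (chromosome 11, 98740638 to 98769006) had 105, 70.0 and 75.3 CPM in DPBS and 92.0, 80.9, 78.2 and 125 CPM in FAPi libraries. It was the member with the smallest relative spread over the 7 libraries, and its log2 difference was 0.18 ± 0.31. Thra shares 263 exon bases with Nr1d1 on the other strand, a clock gene at 35.3 to 66.7 CPM over the libraries, and reads from the shared bases cannot be told apart without strand.

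Ncor1 (chromosome 11, 62316426 to 62458541), the corepressor gene, had 315, 116 and 266 CPM in DPBS and 254, 236, 210 and 283 CPM in FAPi libraries. Apart from DPBS replicate 2 all libraries lay at 210 CPM or more. The log2 difference was 0.08 ± 0.33, and without DPBS replicate 2 it was -0.24. Ncor1 shares 82 exon bases with Pigl on the other strand.

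**Figure D3:**
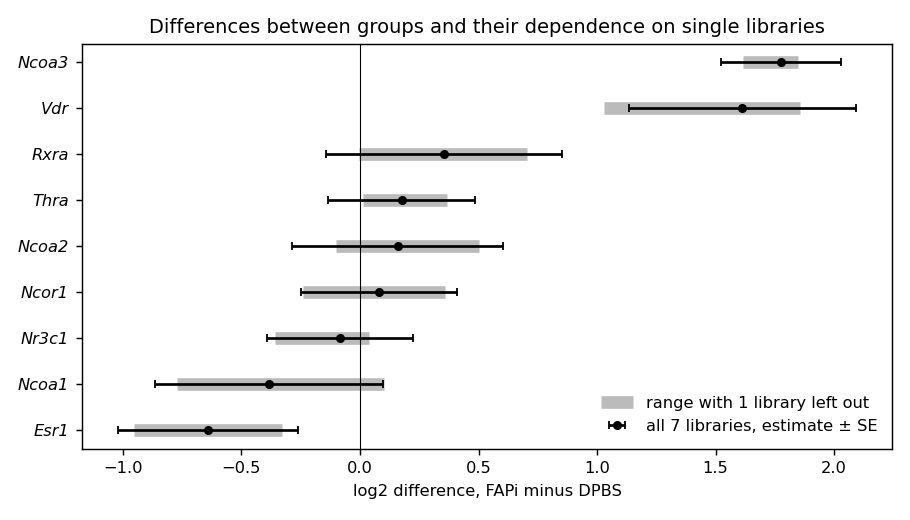
Points give the log2 difference, FAPi minus DPBS, with its SE for each of the 9 genes, and grey bars the range when each library in turn was left out. Ncoa3 (1.62 to 1.85), Vdr (1.03 to 1.86) and Thra (0.01 to 0.37, but -0.01 when scaled by library totals) stay above 0, Esr1 (-0.95 to -0.33) stays below 0, and the bars of Ncoa1, Ncoa2, Ncor1, Nr3c1 and Rxra include 0.

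Levels per kilobase of exon gave a different order in each group. In DPBS libraries the order was Nr3c1 (20.5 ± 3.18 CPM per kb), Ncor1 (18.1 ± 8.10), Thra (18.1 ± 4.05), Esr1 (17.2 ± 7.55) and Ncoa3 (15.3 ± 1.30). Neighbours among these 5 differed by less than the larger of their SDs. Below them lay Vdr (10.3 ± 3.66), Ncoa1 (7.49 ± 3.79), Rxra (5.89 ± 2.87) and Ncoa2 (1.93 ± 0.798). In FAPi libraries Ncoa3 came first at 52.3 ± 10.4 CPM per kb, then Vdr at 31.5 ± 20.8. Thra (20.4 ± 4.71), Nr3c1 (19.3 ± 6.85) and Ncor1 (19.2 ± 2.42) followed and differed from each other by less than either SD. Esr1 (11.0 ± 4.17), Rxra (7.54 ± 3.53), Ncoa1 (5.74 ± 3.04) and Ncoa2 (2.16 ± 0.667) closed the order. Ncoa2 was lowest in all 7 libraries. With the longest transcript as length, Ncoa3 was first and Ncoa2 last over all libraries as before. Ncor1, Rxra and Ncoa1 also kept their places, while the other genes changed theirs. Vdr moved from 2 to 4, Nr3c1 from 3 to 6 and Thra from 4 to 2. Esr1 moved from 6 to 3, because its annotated exons span 13661 bases and its longest transcript 6339.

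Among 40 nuclear receptor genes listed, Nr4a1, an early response receptor gene, had the highest level per kb (46.4 ± 20.9 over 7 libraries). Vdr ranked 3 over all libraries, 9 in DPBS and 3 in FAPi libraries. Nr3c1 and Thra ranked 4 and 5, Esr1 8 and Rxra 13. Of the other steroid and estrogen-related receptors, Pgr, Esrrb and Esrrg had no count in any library, and Esr2 had 0 to 4.05 CPM.

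The genes whose log2 CPM followed that of Ncoa3 most closely over the 7 libraries, among 9570 other genes with at least 5 CPM on average, were Cdk6 (Pearson r = 0.98), Zbtb40 (0.98), Idnk (0.98), Srsf10 (0.97) and Gon4l (0.97). Each had a higher mean in FAPi mice, such as 177 ± 41.4 and 609 ± 191 CPM for the kinase gene Cdk6. As Ncoa3 was chosen by its p in this comparison, a close r with it entails such a difference, which is no further result. Centred within each group, the r was 0.90 for Cdk6, 0.81 for Zbtb40 and 0.94 for Idnk, but 0.38 for Srsf10 and -0.06 for Gon4l. For the last 2 the likeness lay between the groups and not among the libraries of a group. Vdr had an r of 0.86 with Ncoa3, and 0.81 when centred, with FAPi replicate 2 highest at both genes. Esr1 had a centred r of 0.80 with Ncoa3, close to that of Vdr, but an r of -0.35 over the 7 libraries, and FAPi replicate 2 was the highest FAPi library at Esr1 too. The correlations are descriptions over 7 libraries that share the split into groups.

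The other genes of the pathway were counted from lists. Of 122 genes on the lists of coregulators, receptors, chaperones, targets and hormone metabolism, 96 were tested. None passed the edgeR threshold, 10 had an unadjusted p under 0.05 (8.14% over all genes), and DESeq2 called 1, Tnfsf11. The estimate was higher in FAPi mice for 63 of the 96, beside 6537 of all 12930 genes tested. The latter count is also the background for the counts by list below. The groups did not overlap at 11 of the 96 (7.34% over all genes). At 8 of these the FAPi libraries were the higher ones (3.39% over all genes) and at 3, Rara, Rarg and Ctsd, the lower ones (3.95% over all genes).

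Coactivators other than the p160 genes had 8 of 17 tested members with a higher estimate and 9 with a lower one. Their median log2 difference was -0.00 beside 0.01 over all genes tested. Crebbp, the acetyltransferase gene that p160 proteins recruit, had 514, 944 and 1358 CPM in DPBS and 1290, 2944, 1938 and 1530 CPM in FAPi libraries. DPBS replicate 3 lay above FAPi replicate 1, and the log2 difference was 1.04 ± 0.37 (adjusted p = 0.514, edgeR). Med1, a Mediator subunit that contacts receptors directly, had 52.2, 201 and 127 CPM in DPBS and 276, 331, 321 and 160 CPM in FAPi libraries (1.10 ± 0.43, adjusted p = 0.551, edgeR). At Arid1a, a subunit of the SWI/SNF remodelling complex, the groups were separate, at 66.7 to 103 and 136 to 275 CPM (1.25 ± 0.32, adjusted p = 0.462, edgeR). Ddx5 differed by 0.15 ± 0.22.

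All 8 listed corepressors other than Ncor1 were tested, 7 with a higher estimate and a median of 0.09. Nrip1, which encodes a corepressor also known as RIP140 and is itself induced by estrogen, had 48.2, 41.5 and 38.7 CPM in DPBS and 167, 94.1, 45.9 and 111 CPM in FAPi libraries. FAPi replicate 3 lay below DPBS replicate 1, and the log2 difference was 1.29 ± 0.42 (adjusted p = 0.490, edgeR). Gps2 and Tbl1xr1, subunits of the Ncor1 complex, differed by 0.05 ± 0.36 and 0.07 ± 0.42.

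Of 21 tested receptor genes outside the steroid group, 13 had a higher and 8 a lower estimate, with a median of 0.28. Nr2f2, which encodes the orphan receptor COUP-TFII, had 37.6 to 51.9 CPM in DPBS and 52.6 to 176 CPM in FAPi libraries, with FAPi replicate 2 highest as at Vdr. Its log2 difference was 1.01 ± 0.45 (adjusted p = 0.591, edgeR), and 0.48 without that library. Nr2f2 shares 643 exon bases with an antisense gene. The retinoic acid receptor genes Rara and Rarg were lower in each FAPi library. Rara had 14.2 to 27.2 CPM in DPBS and 6.72 to 13.6 CPM in FAPi libraries (-0.94 ± 0.51, adjusted p = 0.677, edgeR). Rarg had 20.8 to 25.8 CPM in DPBS and 12.7 to 20.4 CPM in FAPi libraries (-0.51 ± 0.43, adjusted p = 0.807, edgeR). Chaperones that hold steroid receptors ready for hormone had 8 of 11 tested members with a higher estimate and a median of 0.44. Hsp90ab1 had 599 to 795 CPM in DPBS and 968 to 1046 CPM in FAPi libraries, without overlap (0.53 ± 0.20, adjusted p = 0.547, edgeR). Hspa8 (324 to 353 and 410 to 545 CPM) and Stip1 (21.6 to 32.7 and 34.9 to 97.4 CPM) were separate as well, whereas Hsp90aa1 differed by 0.06 ± 0.27.

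**Figure D4:**
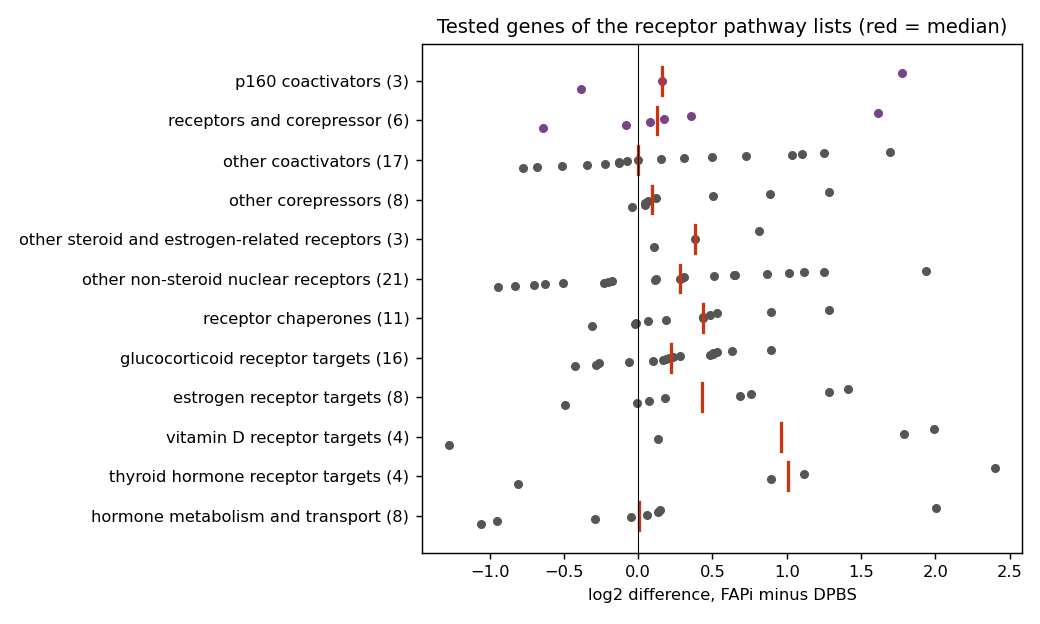
Each point is a tested gene, placed by its log2 difference (FAPi minus DPBS), in 12 lists with the number of tested genes in brackets. The 9 genes of the report are purple and red lines mark medians, which lie between -0.00 for other coactivators and 1.01 for the 4 thyroid hormone targets.

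All 16 glucocorticoid receptor targets were tested, 12 with a higher estimate and a median of 0.22. Klf9, a target of both glucocorticoid and thyroid hormone receptors, had 166, 221 and 133 CPM in DPBS and 432, 339, 265 and 255 CPM in FAPi libraries. Each FAPi library was above all DPBS libraries, and the log2 difference was 0.90 ± 0.29 (adjusted p = 0.490, edgeR). Errfi1 was also separate, at 215 to 333 and 343 to 386 CPM (0.51 ± 0.24, adjusted p = 0.629, edgeR). Mt1, a metallothionein gene, differed by 0.17 ± 0.26. Thyroid hormone targets had 4 tested members, 3 with a higher estimate, and Dio1 had no count. Thrsp was at 43.2 and 62.5 CPM in FAPi replicates 2 and 4 and at 1.88 to 11.4 CPM in the other 5 libraries.

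Estrogen receptor targets had 8 tested members, 6 with a higher estimate and a median of 0.43, and Greb1 and Pgr, which many estrogen-responsive tissues express, had no count in any library. Igf1 had 510, 624 and 571 CPM in DPBS and 562, 1299, 598 and 1187 CPM in FAPi libraries. FAPi replicates 2 and 4 were high and the other FAPi libraries lay within the DPBS range (0.68 ± 0.33, adjusted p = 0.630, edgeR). Cxcl12 and Igfbp4 differed by -0.01 ± 0.18 and 0.08 ± 0.19. Ctsd, a lysosomal protease gene, had 154 to 192 CPM in DPBS and 91.9 to 151 CPM in FAPi libraries (-0.50 ± 0.27, adjusted p = 0.675, edgeR), and Myc had 74.8 to 103 and 110 to 231 CPM, both without overlap. Ctsd shares 808 exon bases with the gene Gm49369.

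Of 8 vitamin D receptor targets 4 were tested, and 3 of these had a higher estimate. Cyp24a1, the vitamin D catabolic gene that responds most strongly in many tissues, had no count in any library, as had Trpv6 and Fgf23. Tnfsf11, which encodes RANKL, had 26.3, 21.5 and 23.9 CPM in DPBS and 92.9, 75.9, 187 and 25.1 CPM in FAPi libraries. FAPi replicate 4 lay within the DPBS range and FAPi replicate 3 was highest. The log2 difference of Tnfsf11 was 1.99 ± 0.57 (adjusted p = 0.483, edgeR). Spp1, the osteopontin gene, differed by 0.14 ± 0.26. Bglap, the osteocalcin gene, differed by -1.27 ± 0.66 and by -0.51 without DPBS replicate 3. Lrp5, a Wnt coreceptor gene, had 0.528 to 2.06 CPM in DPBS and 0.879 to 8.66 CPM in FAPi libraries, where 3 counts correspond to 0.284 to 0.400 CPM. FAPi replicate 2, the highest at Vdr, was the highest FAPi library at Bglap but not at Tnfsf11, Spp1 or Lrp5. The part of Vdr in the levels of these genes was not tested.

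**Figure D5:**
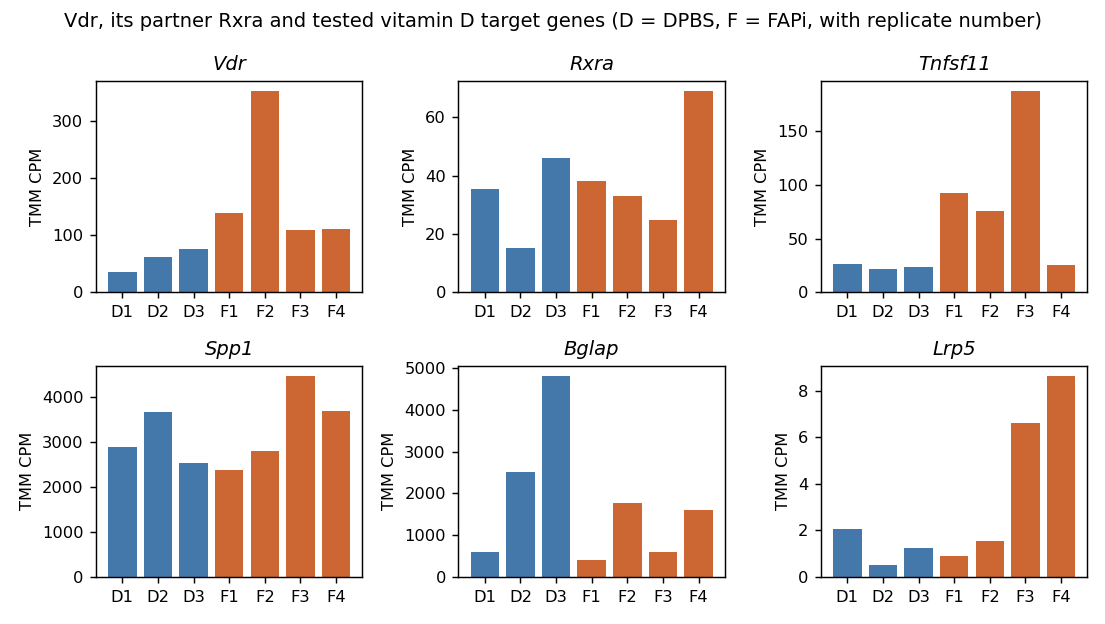
Bars give TMM-normalised CPM of Vdr, Rxra and the 4 tested vitamin D targets in DPBS (D1 to D3, blue) and FAPi (F1 to F4, orange) libraries, each panel with its own axis from 0. Vdr peaks in F2 at 353 CPM and Tnfsf11 in F3 at 187 CPM.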

How the data were processed

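The authors deposited for each library a table of whole-number gene counts and a CPM table. The counts are labelled rmdup, which by its name refers to removal of duplicate reads. The submitters' processing notes name STAR, HTSeq and mm10, with no version given. Neither the annotation nor strandedness is recorded in the labels. The deposited CPM equal counts over the library total, within 4.55e-05 CPM. In 6 of 7 CPM tables the end is repeated, and each gene's first entry was kept. Of 53801 gene IDs, 53620 matched GENCODE M21 without version suffixes, which gave symbols, exon lengths and mm10 coordinates.

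Counts were fitted in R 4.3.3 with edgeR 4.0.16 over all genes (filterByExpr with a minimum count of 10, TMM, robust glmQLFit and glmQLFTest), with Benjamini-Hochberg adjustment over 12930 genes and a threshold of 0.05. SE is the absolute log2 difference over the square root of F. Correlations used log2 CPM with a prior count of 2. Alternatives were DESeq2 1.42.0, limma 3.58.1 (voom with sample weights, and trend with robust variances on deposited CPM), other scalings and filters, a blood marker covariate, a replicate block and the omission of each library. On simulated counts for this comparison over 12930 genes, edgeR recovered 0% of genes changed 2-fold, 16% at 4-fold, 56% at 8-fold and 78% at 16-fold, with 2 false calls. No pair of libraries of a group agreed within sampling noise. Counting error does not cover amplified reads without molecular identifiers.

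The members and lists were chosen with earlier results of these data known. Named from each list were up to 4 genes with the highest mean CPM and the gene with the smallest p. Arid1a and Stip1 were named by p, and genes without any count or outside this rule (Pgr, Esrrb, Esrrg, Greb1, Cyp24a1, Trpv6, Fgf23, Dio1, Cyp19a1, Cyp27b1, Dio2, 5 T and NK cell markers, Nr1d1 and Pigl for their overlaps, and Rara, Rarg, Ctsd and Myc for groups without overlap) after their values were seen. Some genes that this rule allowed are not reported here. Sequences come from RefSeq, build GRCm38.p6.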

Additional observations from a re-analysis of the deposited data

Results flagged for a closer look

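At the 9 genes and at Sulf2 the FAPi libraries were examined for a single distant value, by the gap to the nearest library over the range of the group. Of these 10 genes 1 was marked, and chance marks about 1 in 20 such groups. FAPi replicate 2 had 353 CPM of Vdr, whereas the other 3 had 109 to 140 CPM, a ratio of 0.874, above Dixon's 95% critical value. Ncoa3 was highest in the same library at 534 CPM, with a ratio of 0.827, under that value. The 3 DPBS libraries were too few for this check.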

How the results depend on the processing

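The edgeR counts of 0 called genes, 0 called members and 0 called pathway genes became 135, 1 (Ncoa3) and 1 (Tnfsf11) with DESeq2, which left 663 adjusted p-values as NA. They became 6, 1 (Ncoa3) and 0 with no low-count filter and with limma on deposited CPM (pseudocount 1 or 0.1), and 1, 0 and 0 with voom weights. Leaving out 1 library gave 0 to 3 called genes, all 3 without DPBS replicate 3 (Gm47917, Mbnl3 and Stard8, named after their values were seen), and 0 members. The adjusted p of Ncoa3 ranged from 2.57e-04 to 0.470 over 18 alternatives and that of Vdr from 0.0817 to 0.814. The log2 difference of Ncoa3 ranged from 1.58 to 1.86 and that of Vdr from 1.03 to 1.86, both above 0 in all 18. Scaling by library totals moved the median of all genes by -0.17, and with it Thra, Ncoa2 and Ncor1 turned to -0.01, -0.05 and -0.12, which is above that shifted median. With the blood marker covariate the difference was 0.72 for Ncoa2, -0.44 for Rxra and -0.25 for Ncor1, and without DPBS replicate 2 it was 0.10 for Ncoa1. The cause was not tested. Libraries with the same replicate number did not deviate together over the tested genes as a whole (r of -0.01, -0.02 and -0.05). Such a correlation over all genes cannot exclude a pairing that acts on some of them. With the replicate block there were 0 called genes, 718 at an unadjusted p under 0.05, and differences of 1.79 for Ncoa3 and 1.67 for Vdr. The count of members without overlap, 2, was the same without DPBS replicate 2, an alternative added after seeing the data.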

Other observations

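Genes that make, convert or carry the hormones of these receptors had 4 of 8 tested members with a higher and 4 with a lower estimate, none past the edgeR threshold or at an unadjusted p under 0.05, nor called by DESeq2. Hsd11b1, whose enzyme regenerates active glucocorticoid, had 42.1, 98.6 and 25.7 CPM in DPBS and 29.0, 36.8, 97.6 and 82.1 CPM in FAPi libraries. Srd5a1, a steroid reductase gene, was at 297 CPM in FAPi replicate 3 and at 10.2 to 31.5 CPM in the other 6 libraries. Its log2 difference of 2.002 became -0.07 without that library. Cyp19a1, Cyp27b1 and Dio2, which make estrogen, active vitamin D and active thyroid hormone, had no count in any library.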
